A study of Mus musculus with 9 samples.

Results

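The 300 genes described here are the microRNA genes of a mouse whole-transcript array, out of 19937 genes that had an array row of their own. They were chosen by name alone: every symbol that starts with Mir and a digit, or with Mirlet, was taken, and of the rows mapped to exactly 1 symbol, the one with the highest 9-array mean stood for its gene. Of the 300, 4 are long host transcripts rather than hairpins (Mir17hg, Mir99ahg, Mir100hg and Mir670hg). Another 37 rows carried several symbols of which at least 1 was a microRNA, and these were not used. The miR-290 to miR-295 cluster, Mir21a and Mir214 had no row of their own under this rule and were not analysed here.

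The study compared 3 groups of 3 arrays each, all from cells labelled OG2-GFP/Rosa26-M2rtTA, a background that carries an Oct4 reporter and a doxycycline-dependent activator. The first group held fibroblasts at passage 4, derived from TSKM-iPS mice, that is, from mice made with iPS cells of the Tet1, Sox2, Klf4 and c-Myc (TSKM) system, and grown in feeder medium. The TSKM-3D group (day 3 below) held such cells at passage 4 after 3 days of doxycycline in medium for embryonic stem cells that contains LIF. The induction and the change of medium therefore cannot be told apart. The iPS group held an established induced pluripotent line at passages 10 to 15, grown on mitomycin C treated embryonic fibroblasts that were removed by a short replating. It is 1 line. The 3 groups are separate samples, so words such as rise, fall or after day 3 name differences between groups, not cells followed over time. No label states whether replicate arrays stem from independent cultures, so p-values here measure a spread that may be technical. The cell type label of the third fibroblast array names induced cells, while its title, source and passage name fibroblasts, and it was kept as a fibroblast array.

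MicroRNAs are short RNAs that pair with messenger RNAs mainly through their seed, the bases near the 5′ end, and lower the output of those messages. They are cut from hairpins within longer primary transcripts, first in the nucleus by the Drosha and Dgcr8 complex and then in the cytoplasm by Dicer, and several hairpins often lie in 1 primary transcript. In pluripotent stem cells the miR-290 and miR-302 families are characteristic, miR-17-92 is linked to proliferation and is a known target of c-Myc, and let-7 is held low by LIN28 proteins. A row of this array reports labelled total RNA over a locus, so it does not separate the primary transcript, the hairpin and the mature RNA.

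The mature sequences on which the results turn are shown first, from RefSeq (GRCm38.p6), 5′ to 3′, with the seed (bases 2 to 8) in capitals. RefSeq hairpins were matched by gene identifier for 258 of the 300 genes and mature sequences for 270. The first set comes from the miR-17-92 cluster at chr14:115043671-115044506 on the plus strand, whose rows moved most, and is grouped by seed so that it can be read against its relatives at other loci.
miR-17-5p (cluster on chromosome 14): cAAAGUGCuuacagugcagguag
miR-20a-5p (cluster on chromosome 14): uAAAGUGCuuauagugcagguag
miR-106a-5p (chromosome X): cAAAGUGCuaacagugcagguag
miR-20b-5p (chromosome X): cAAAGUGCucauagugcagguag
miR-93-5p (chromosome 5): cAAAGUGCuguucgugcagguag
miR-106b-5p (chromosome 5): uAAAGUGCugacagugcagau
miR-18a-5p (cluster on chromosome 14): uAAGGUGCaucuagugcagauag
miR-19a-3p (cluster on chromosome 14): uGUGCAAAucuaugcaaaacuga
miR-19b-3p (from Mir19b-1 on chromosome 14 and, identical, from Mir19b-2 on chromosome X): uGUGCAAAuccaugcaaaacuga

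The mature miR-19b-3p is the same from both of its loci, but the hairpins around it are not: they were 75% identical over 92 alignment columns. They are printed because their rows behaved differently, with the shared mature arm in capitals.
Mir19b-1 hairpin: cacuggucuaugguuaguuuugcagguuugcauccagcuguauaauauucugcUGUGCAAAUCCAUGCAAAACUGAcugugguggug
Mir19b-2 hairpin: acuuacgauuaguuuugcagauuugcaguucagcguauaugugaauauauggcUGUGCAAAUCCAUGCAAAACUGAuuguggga

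The next set holds the members of the imprinted Dlk1-Dio3 region on chromosome 12 whose rows fell at day 3, together with miR-381-3p, which resembles miR-300-3p in sequence but whose row did not pass the test.
miR-377-3p: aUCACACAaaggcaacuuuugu
miR-382-5p: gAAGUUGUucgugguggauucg
miR-300-3p: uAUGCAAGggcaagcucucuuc
miR-381-3p: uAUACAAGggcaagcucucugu
miR-323-3p: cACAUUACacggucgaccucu
miR-329-3p: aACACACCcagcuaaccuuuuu

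The last set holds microRNAs whose rows were high at day 3 only, from the cluster at chr8:84208518-84208921 (plus strand) and from Mir31, those whose rows rose between TSKM-3D and iPS cells, and the families known from pluripotent and differentiated cells.
miR-23a-3p: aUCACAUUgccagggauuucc
miR-27a-3p: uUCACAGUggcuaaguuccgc
miR-24-3p: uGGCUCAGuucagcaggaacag
miR-31-5p: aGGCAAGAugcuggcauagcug
miR-677-5p: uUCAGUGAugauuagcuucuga
miR-3068-5p: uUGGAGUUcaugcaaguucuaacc
miR-302b-3p: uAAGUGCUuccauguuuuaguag
miR-302d-3p: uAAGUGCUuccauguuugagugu
let-7f-5p (from Mirlet7f-1 and, identical, from Mirlet7f-2): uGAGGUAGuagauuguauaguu
let-7a-5p: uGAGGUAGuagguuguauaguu

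MicroRNA gene rows lay low on the array's scale, which depends on the probes as well as on the RNA. The median log2 level of the 300 lay between 4.51 and 4.57 on the fibroblast arrays, 4.68 and 4.84 on the TSKM-3D arrays and 4.77 and 4.79 on the iPS arrays, against 6.57 to 6.73 for all 19937 genes. On each array 74.0% to 77.3% of the microRNA genes lay below the median of all array rows, and only 87 of the 300 reached that median on average in at least 1 group. The median SD of 3 arrays was 0.08 in fibroblasts, 0.155 in TSKM-3D and 0.103 in iPS cells, close to the 0.07, 0.132 and 0.105 of all genes. In 22 members all 3 values of at least 1 group were exactly equal, and 0 of these 22 passed the test in any comparison. How far a dim row stands above background was not measured.

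A gene was called higher or lower when limma's Benjamini-Hochberg adjusted p over all 19937 genes was under 0.05 and the difference was at least 2-fold, that is, 1 on the log2 scale. Between fibroblasts and TSKM-3D, 13 microRNA genes were called higher (4.33%, where 3.25% of all genes were) and 5 lower (1.67%, where 7.58% of all genes were). Between TSKM-3D and iPS cells, 2 were higher (0.667%, against 6.48% of all genes) and 8 lower (2.67%, against 8.57%). Between fibroblasts and iPS cells, 19 were higher (6.33%, against 7.63%) and 8 lower (2.67%, against 13.8%), a split of 70.4% higher that became 12 against 9 (57.1% higher) when array medians were set equal. The share of microRNA genes called higher at day 3 was thus slightly above that of all genes, and the other shares were below it. These shares are not matched for level in any of the 3 comparisons. Genes averaging under the array median in every group were seldom called (0.568%, 1.07% and 1.64%, against 16.6%, 23.0% and 32.7% of the rest). With only the rest tested, 10, 2 and 13 of 87 microRNA genes were higher, and 4, 7 and 5 lower. Of all genes in the rest, 4.94%, 9.72% and 11.3% were higher and 11.7%, 13.3% and 21.4% lower in the main test. The 3 comparisons share arrays, so their counts are not independent of each other.

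In all, 35 members were called in at least 1 comparison and 265 in none. For every called member the 3 arrays of one group lay wholly above those of the other, and no member passed 2-fold without the adjusted p. Such separation was common: it held for 43.0%, 25.7% and 50.7% of the 300 in the 3 comparisons. Among all genes it held for 53.1%, 49.5% and 65.0%. Without the fold requirement 99 members passed at day 3 (where 44.6% of all genes did), 69 between TSKM-3D and iPS and 121 between fibroblasts and iPS (45.6% and 54.6% of all genes). The median difference of the 300 was 0.16, 0.02 and 0.14 on the log2 scale in the 3 comparisons, beside 0.05, -0.01 and 0.05 for all genes. Setting array medians equal moved the median of all genes between iPS and fibroblasts to -0.12 and that of the microRNA genes to -0.03, so small differences of that size have no settled sign.

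Marker genes were read against the group labels. All 8 pluripotency markers (Pou5f1, Nanog and others) were higher in iPS than in both other groups, their summed linear level being 27050 to 27617 on iPS arrays, 427 to 496 at day 3 and 304 to 332 in fibroblasts. The summed level of 8 fibroblast markers was 22134 to 23951 in fibroblasts, 14346 to 15496 at day 3 and 5397 to 7237 in iPS cells, with 5 of 8 called lower at day 3 and 6 of 8 in iPS cells against fibroblasts. Between TSKM-3D and iPS 4 of these 8 were lower and 1, Dcn, was higher. Col1a1 and Col1a2, not called lower in iPS cells than in fibroblasts, averaged 11.47 and 10.96 in iPS cells and 12.2 and 11.91 in fibroblasts. How much RNA of remaining feeder cells the iPS arrays hold was not measured. The 8 macrophage markers summed to 1409 to 1532, 493 to 513 and 1105 to 1118 in the same order. At day 3, 3 of the 8 were called lower (C1qb, Cd53 and Lyz2, with differences of -1.63, -2.91 and -4.01) and the other 5 were not called, from -0.93 (Csf1r) to 0.18 (Cd68). In iPS cells against fibroblasts the same 3 were lower (-1.49, -2.90 and -3.14) and Cd68 alone was higher (2.10). The 4 epithelial markers summed to 267 to 276, 300 to 363 and 3752 to 3890. No marker of these lists was at 0. Fewer cells of a type and less RNA per cell cannot be told apart in bulk samples, and the part of these shifts in the microRNA differences was not tested.

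The miR-17-92 cluster made up the strongest response among the microRNA genes. Its 5 measured hairpins and its host transcript Mir17hg all rose at day 3, by 2.85-fold (Mir17hg) to 11.5-fold (Mir19b-1), and all 6 were higher in iPS cells than in fibroblasts as well. RefSeq lists 6 hairpins here within 836 bases. Mir92-1, the last of them, is named only on a row that also carries Mir17hg and was not used.

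Mir20a, whose mature form carries the AAAGUGC seed, measured 3.82, 3.40 and 3.66 on the fibroblast arrays, 7.04, 7.02 and 7.29 on the TSKM-3D arrays and 6.99, 6.97 and 6.99 on the iPS arrays. The fibroblast arrays lay far below both other groups, which differed little. The rise at day 3 was 3.49 ± 0.11 on the log2 scale (SE, n = 3 per group; limma, Benjamini-Hochberg adjusted p = 1.4e-09), or 11.2-fold, and the difference between iPS and TSKM-3D was -0.14 (adjusted p = 0.376).

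Mir19b-1, with the GUGCAAA seed, measured 3.97, 3.70 and 3.71 in fibroblasts, 6.99, 7.26 and 7.71 at day 3, and 7.47, 6.94 and 7.05 in iPS cells. Its rise at day 3 was 3.53 ± 0.18 (limma, Benjamini-Hochberg adjusted p = 3.27e-08). The TSKM-3D and iPS arrays overlapped, so the level reached at day 3 was not distinguishable from that of the iPS line (-0.17, adjusted p = 0.501).

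Mir19a, which shares that seed, measured 2.89, 3.12 and 3.45, then 5.55, 5.40 and 6.44, then 6.11, 6.09 and 6.26. Mir18 measured 4.45, 4.34 and 4.69, then 6.85, 6.77 and 7.65, then 7.71, 7.16 and 7.58. The third TSKM-3D array was the highest of its group for both, yet every TSKM-3D array exceeded every fibroblast array. The rises at day 3 were 2.64 ± 0.23 for Mir19a and 2.59 ± 0.22 for Mir18 (limma, Benjamini-Hochberg adjusted p = 2.15e-06 and 1.47e-06).

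Mir17 was the exception within the cluster after day 3. It measured 4.11, 3.89 and 3.89 in fibroblasts, 6.40, 6.43 and 6.38 at day 3, and 5.60, 5.53 and 5.77 in iPS cells. The 3 groups did not overlap and TSKM-3D was the highest. The rise at day 3 was 2.44 ± 0.09 (limma, Benjamini-Hochberg adjusted p = 3.68e-09), and the iPS arrays then stood 0.77 ± 0.09 lower than TSKM-3D (difference -0.77, adjusted p = 2.07e-05), a difference under 2-fold. Mir17hg, the transcript that carries the cluster, measured 4.78, 4.67 and 4.48, then 6.10, 5.97 and 6.40, then 6.45, 6.06 and 6.17, a rise of 1.51 ± 0.13 (adjusted p = 2.49e-06) followed by 0.07 (adjusted p = 0.72).

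The relatives of the cluster behaved otherwise. None of the 8 measured genes of the miR-106a-363 cluster on chromosome X (Mir106a, Mir20b, Mir19b-2, Mir92-2, Mir363) and of the miR-106b-25 cluster on chromosome 5 (Mir106b, Mir93, Mir25) was called in any of the 3 comparisons by limma, with 2 of 8 at an unadjusted p under 0.05 in each. Called were 10.8%, 15.1% and 21.5% of all genes and 6.0%, 3.33% and 9.0% of the 300 microRNA rows. The chromosome X rows were dim in every group, with group means from 3.02 to 4.49. The differences of the 8 relatives between TSKM-3D and fibroblasts ran from 0.03 to 0.46, where those of the 6 genes of miR-17-92 ran from 1.51 to 3.53. Only Mir92-2 passed the adjusted p at day 3 (0.46, adjusted p = 0.0222).

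The chromosome 5 relatives lie inside Mcm7, a helicase subunit of DNA replication. Mir25 measured 7.51, 7.63 and 7.40 in fibroblasts, 7.60, 7.75 and 7.28 at day 3, and 8.52, 8.24 and 8.16 in iPS cells, so that the iPS arrays stood apart above the others. Its difference between iPS and fibroblasts was 0.79 and that of Mir93 0.62 (limma, Benjamini-Hochberg adjusted p = 0.00024 and 0.00566), neither reaching 2-fold, while Mcm7 itself was higher by 1.05 (adjusted p = 1.51e-07). Of the 6 measured genes with the AAAGUGC seed, then, the 2 in the miR-17-92 cluster were called higher at day 3 and the other 4 were not, and of the 3 with GUGCAAA the 2 in the cluster were.

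**Figure D1:**
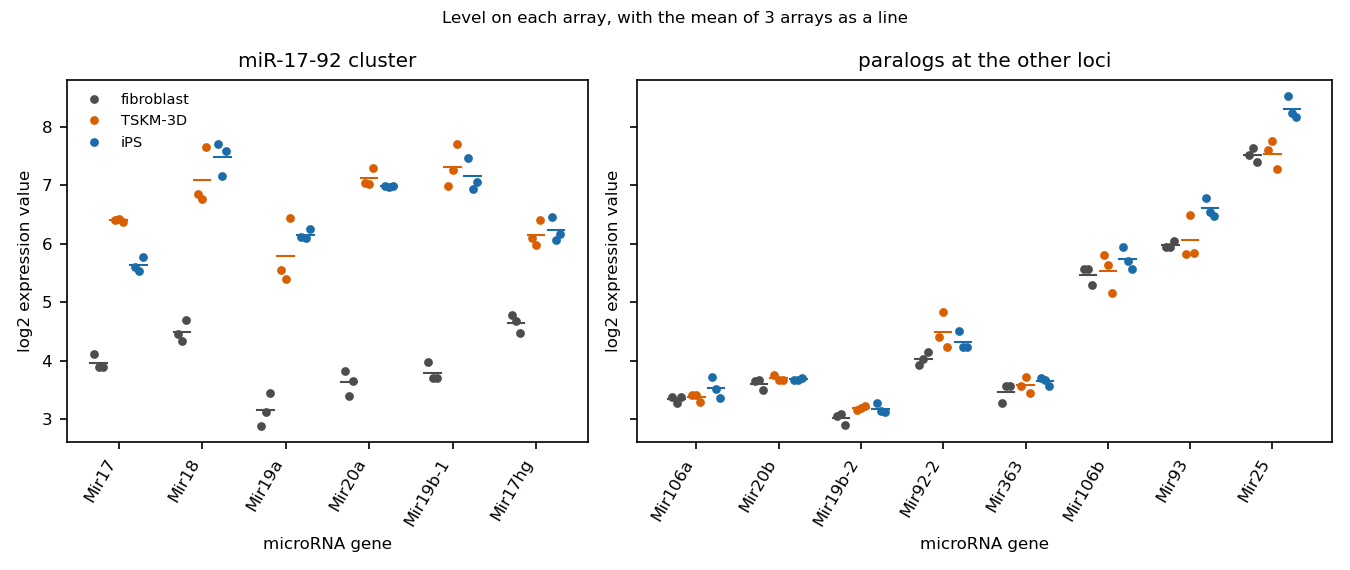
Log2 level on each of the 9 arrays (points, with group means as lines) for the miR-17-92 cluster on the left and its 8 relatives at other loci on the right. In the cluster every fibroblast point lies below every TSKM-3D and iPS point, whereas among the relatives only Mir25 and Mir93 have iPS points set above the fibroblast points by over 0.6 on average.

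Mir19b-2 is the plainest counterpart, since it encodes the same mature RNA as Mir19b-1. Its row measured 3.06, 3.09 and 2.90 in fibroblasts, 3.15, 3.19 and 3.23 at day 3, and 3.27, 3.13 and 3.12 in iPS cells, a difference of 0.18 at day 3 (limma, Benjamini-Hochberg adjusted p = 0.0956) beside 3.53 for Mir19b-1. Both rows were near the bottom of the array's range in fibroblasts, and only the Mir19b-1 row left it. Whether the probes of either row also bind RNA from the other locus was not tested.

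Across the members there were 23 such pairs of loci with an identical mature sequence, 3 of them among the miR-680 loci. At day 3, 6 pairs had at least 1 locus called, and in 5 of those the other locus was not called the same way. Between TSKM-3D and iPS the calls differed in 2 of 2 pairs, and between fibroblasts and iPS in 4 of 4. Those 2 pairs both rest on the call of Mir680-2 (-1.03), beside -0.96 for Mir680-1 and 0.21 for Mir680-3. Pairs of the miR-680 loci share members and are not separate cases. A call in one locus and none in the other does not by itself show that the loci differed, and the differences between loci were not tested.

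Mirlet7f-1 measured 4.12, 3.98 and 4.07 in fibroblasts, 4.92, 4.82 and 5.58 at day 3, and 4.72, 5.02 and 5.35 in iPS cells, higher at day 3 by 1.05 ± 0.19 (limma, Benjamini-Hochberg adjusted p = 0.000849). Mirlet7f-2, with the same mature let-7f, measured 3.69, 3.49 and 3.62, then 3.49, 3.92 and 3.77, then 3.81, 4.06 and 3.97, a difference of 0.13 at day 3. The fibroblast and TSKM-3D arrays did not overlap for the first locus and overlapped for the second. Without the third TSKM-3D array the difference of Mirlet7f-1 was 0.81, and with array medians set equal 0.99, both short of 2-fold.

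The miR-680 loci included the only pair of the 23 that was called together. Mir680-1 measured 4.93, 4.94 and 5.07 in fibroblasts, 6.62, 6.07 and 6.88 at day 3 and 5.57 on each iPS array to 2 decimals, and Mir680-2 measured 6.0, 6.11 and 6.24, then 7.40, 7.37 and 8.10, then 6.67, 6.55 and 6.57. For both the TSKM-3D arrays were the highest of the 3 groups. They rose by 1.54 ± 0.16 and 1.51 ± 0.16 at day 3 (limma, Benjamini-Hochberg adjusted p = 9.03e-06 and 1.31e-05), and iPS cells were then lower than TSKM-3D by 0.96 and 1.03 (differences -0.96 and -1.03), the latter called. Without the third TSKM-3D array that difference of Mir680-2 was -0.79 and was no longer called.

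Hairpins of Mir680-1 and Mir680-2 were 82.8% identical over 116 columns, and whether their rows share signal was not tested. Mir680-3, at 45.0% identity to Mir680-1 over 131 columns, differed by 0.78 at day 3 and by 0.21 between TSKM-3D and iPS. Mir365-1 rose by 1.01 at day 3 and 1.47 in iPS cells against fibroblasts, with 0.76 and 0.73 for Mir365-2. The day-3 call of Mir365-1 was lost without the second TSKM-3D array (0.83), without the second or the third fibroblast array (1.00, just under the line, and 0.98), and under quantile normalization (0.89) or equal array medians (0.96).

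**Figure D2:**
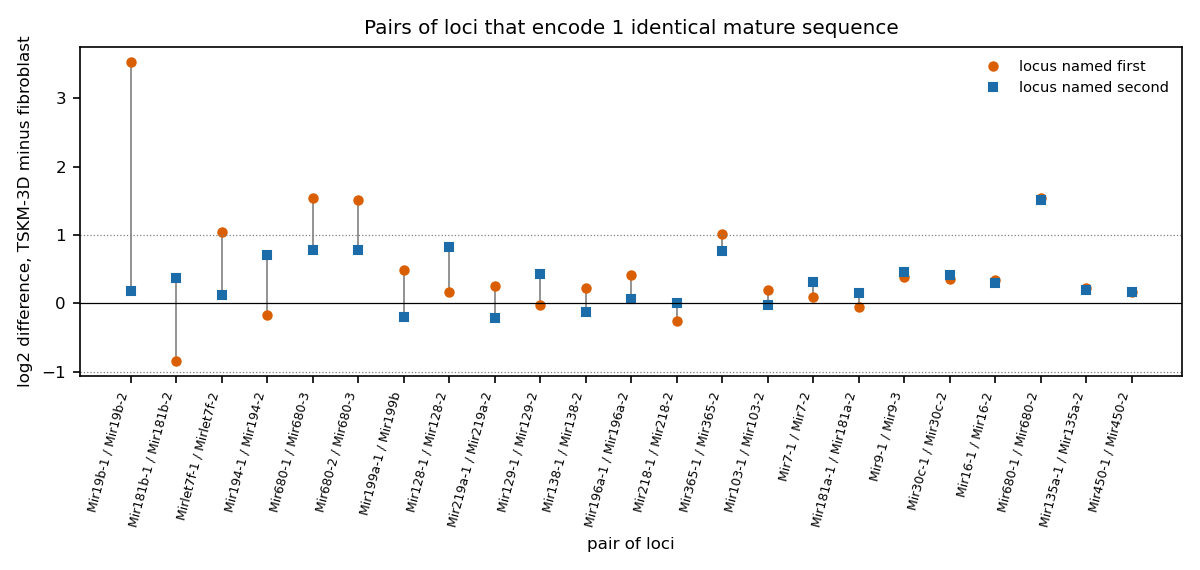
Log2 difference between TSKM-3D and fibroblasts for the 23 pairs of loci that encode an identical mature sequence, one marker per locus joined by a line, with dotted lines at 2-fold. The longest line joins Mir19b-1 at 3.53 to Mir19b-2 at 0.18, and most of the other pairs lie together between the dotted lines.

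All 5 microRNA genes called lower at day 3 lie in the Dlk1-Dio3 region, an imprinted stretch of chromosome 12 with protein-coding genes expressed from the paternal copy and noncoding RNAs, including many microRNAs, from the maternal copy. The 5 were Mir377, Mir382, Mir300, Mir323 and Mir329, out of 40 members of the region, or 12.5% where 7.58% of all genes were called lower. They belong to 1 cluster at chr12:109709060-109747960 on the plus strand, in which RefSeq lists 36 hairpins within 38901 bases and 29 were measured. The rest of that cluster lay between -0.86 and 0.37 at day 3.

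Mir377 measured 6.98, 6.89 and 6.87 in fibroblasts, 4.19, 4.37 and 4.40 at day 3, and 4.08, 4.54 and 4.80 in iPS cells. Mir382 measured 7.0, 7.04 and 7.02, then 4.46, 4.56 and 4.44, then 4.28, 4.84 and 4.57. Both left a level above the array median in fibroblasts for a low one that TSKM-3D and iPS arrays shared. At day 3 Mir377 fell by 2.59 (SE 0.15; limma, Benjamini-Hochberg adjusted p = 7.4e-08) and Mir382 fell by 2.54 (SE 0.12; adjusted p = 1.81e-08), which is 6.04-fold and 5.80-fold.

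Mir300 measured 5.59, 5.54 and 5.73 in fibroblasts, 4.04, 3.69 and 4.34 at day 3, and 4.56, 4.57 and 4.52 in iPS cells, so that iPS arrays lay between the other groups. It fell by 1.60 at day 3 (SE 0.14; limma, Benjamini-Hochberg adjusted p = 1.77e-06). Mir381, whose mature sequence above resembles that of miR-300, measured 3.56 to 3.72 over all 9 arrays and differed by 0.09 (adjusted p = 0.286).

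Mir323 measured 6.5, 6.14 and 6.22, then 5.03, 4.94 and 4.80, then 5.51, 5.22 and 5.07, and fell by 1.36 at day 3 (SE 0.13; limma, Benjamini-Hochberg adjusted p = 3.7e-06). Mir329 measured 6.86, 6.68 and 6.68, then 5.59, 5.81 and 5.78, then 6.21, 6.68 and 6.30, and fell by 1.01 (SE 0.12; adjusted p = 2.89e-05). Of its iPS arrays, the second touched the lowest fibroblast value and the other 2 lay below it. Its day-3 call was lost without the first fibroblast array (-0.95) or the first TSKM-3D array (-0.94).

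No other member of the region reached 2-fold at day 3. Without the fold requirement 17 of the 40, the 5 called ones included, were lower at day 3, where 25.3% of all genes were. Another 3 were higher, where 19.2% were (limma, Benjamini-Hochberg). The median difference of the 40 was -0.23, beside 0.05 for all genes. Mir485 (-0.84, adjusted p = 3.67e-05), Mir134 (-0.84, adjusted p = 0.000809) and Mir380 (-0.86, adjusted p = 0.00399) came closest to 2-fold. Between TSKM-3D and iPS none of the 40 was called by limma, with 11 at an adjusted p under 0.05, all higher, and 14 at an unadjusted p under 0.05. Of all genes, 15.1% were called in that comparison. At an adjusted p under 0.05, 22.3% of all genes were higher and 23.2% lower.

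Between fibroblasts and iPS cells 4 members of the region were lower (Mir377, Mir382, Mir300 and Mir323, with differences of -2.44, -2.46, -1.07 and -1.02), or 10% where 13.8% of all genes were called lower, and 1 was higher (2.5%, against 7.63%). The call of Mir323 was lost without the first fibroblast array (-0.91), the second iPS array (-0.99) or the third (-0.92). The higher one, Mir341, measured 7.99, 7.93 and 8.0 in fibroblasts, 8.56, 8.77 and 8.38 at day 3, and 9.09, 9.26 and 9.34 in iPS cells. Its 3 groups lay in ascending order without overlap, 1.26 ± 0.10 apart from fibroblasts to iPS (limma, Benjamini-Hochberg adjusted p = 6.79e-07).

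The neighbouring genes of the region, chosen after their values were seen, were set beside the microRNAs. Dlk1, a paternally expressed ligand-like membrane protein, fell by 3.03 at day 3 and was near its day-3 level in iPS cells (0.08 between TSKM-3D and iPS). The maternally expressed long noncoding RNA Meg3 fell by 1.71 at day 3 and was 2.09 higher in iPS than in TSKM-3D cells. Rian, another such RNA and the host of Mir341 and Mir370, fell by 1.5 at day 3 and stood 0.77 higher in iPS than in TSKM-3D cells, short of 2-fold. Dio3, the paternally expressed enzyme gene at the far end of the region, differed by -0.63 at day 3 and was higher in iPS cells than in TSKM-3D cells by 1.84 and than in fibroblasts by 1.20, unlike Dlk1. The iPS line held Meg3 at a level 0.38 above fibroblasts (limma, Benjamini-Hochberg adjusted p = 0.0537) while Mir377 and Mir382 were at their day-3 level. Of the 8 macrophage markers 3 also fell at day 3, as given above, and their part in these differences was not tested.

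**Figure D3:**
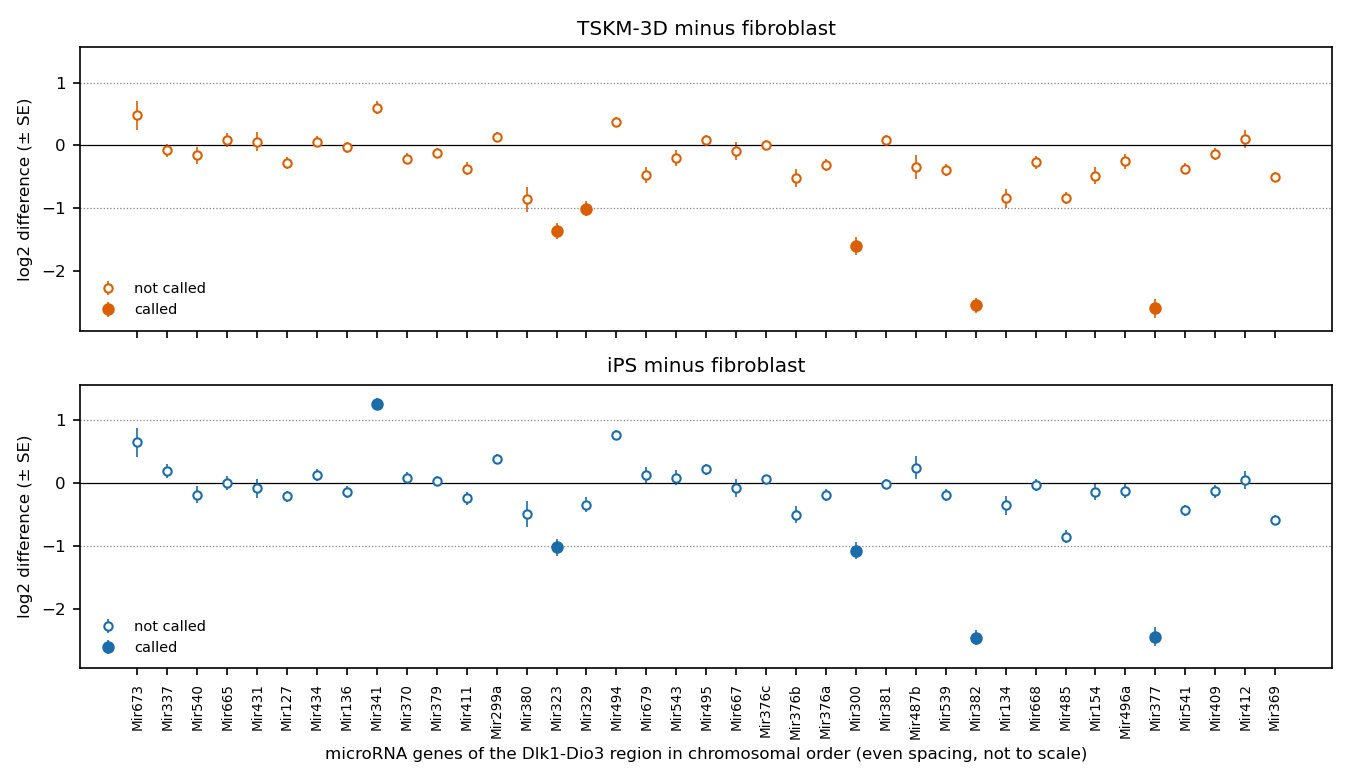
Log2 difference with SE for the 39 positioned members of the Dlk1-Dio3 region in chromosomal order, evenly spaced, for TSKM-3D against fibroblasts (top) and iPS against fibroblasts (bottom), with called genes filled and dotted lines at 2-fold. The called genes (5 at the top, 4 lower and Mir341 higher at the bottom) are scattered among neighbours that stay between the dotted lines.

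A further group of rows was high at day 3 and low on both sides of it. In the cluster of Mir23a, Mir27a and Mir24-2, known from many differentiated cell types, the first 2 rose at day 3 by 2.60-fold and 2.58-fold. In iPS cells these 2 were lower than in TSKM-3D cells by 2.78-fold and 3.18-fold. Both are on the list of 22 mesenchymal rows, which holds microRNAs and the host transcript Mir100hg. These 2 were the only ones of the 22 called higher at day 3 (9.09%, against 3.25% of all genes).

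Mir23a measured 6.86, 6.80 and 6.94 in fibroblasts, 7.94, 8.62 and 8.19 at day 3, and 6.51, 6.96 and 6.85 in iPS cells. Mir27a measured 7.22, 6.95 and 7.33, then 8.19, 8.61 and 8.80, then 6.67, 7.09 and 6.82. Fibroblast and iPS arrays overlapped for both, and all 3 TSKM-3D arrays stood above them. The rises at day 3 were 1.38 ± 0.16 and 1.37 ± 0.16 (limma, Benjamini-Hochberg adjusted p = 2.36e-05 and 2.53e-05), and the falls from TSKM-3D to iPS were -1.48 ± 0.16 and -1.67 ± 0.16 (adjusted p = 1.05e-05 and 3.63e-06).

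Mir24-2, the third hairpin of that cluster, within 404 bases, measured 6.69, 6.52 and 6.76, then 7.08, 7.53 and 7.03, then 6.60, 6.82 and 6.77. It had the same order of groups with smaller differences, 0.55 and -0.48 (limma, Benjamini-Hochberg adjusted p = 0.00442 and 0.0095), both under 2-fold. Mir31 measured 5.61, 5.80 and 5.56 in fibroblasts, 6.65, 6.48 and 6.56 at day 3 and 5.61, 5.23 and 4.94 in iPS cells, 0.91 higher at day 3 and then lower by 2.47-fold (-1.30 ± 0.15, adjusted p = 1.27e-05). Its day-3 difference was one of those just short of the 2-fold line, with Mir320 at 0.92, while Mir365-1 at 1.01 and Mir329 at -1.01 were just past it.

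Further mesenchymal microRNAs had the same order of groups without reaching 2-fold. Mir221 measured 3.5, 3.63 and 3.65 in fibroblasts, 4.18, 4.13 and 3.92 at day 3, and 3.69, 3.51 and 3.64 in iPS cells, with differences of 0.48 and -0.46 at the 2 steps (limma, Benjamini-Hochberg adjusted p = 0.00103 and 0.00126). Its cluster partner Mir222 differed by 0.05 and -0.02. Mir29b-1 differed by 0.25 and -0.20 (adjusted p = 0.0147 and 0.0429), and Mir29a by 0.40 and -0.60, of which the first did not pass (adjusted p = 0.0869 and 0.013).

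The next comparison, of iPS with TSKM-3D cells, showed falls among the mesenchymal rows. Of the 22, 6 were lower in iPS than in TSKM-3D cells, or 27.3% where 8.57% of all genes were called lower. None was higher. The 6 were the host transcript Mir100hg and the microRNAs Mir145a, Mir27a, Mir23a, Mir31 and Mir143. Mir23a, Mir27a and Mir31 were not called lower in iPS cells than in fibroblasts. Mir100hg and Mir145a, by contrast, were also lower than in fibroblasts, the only 2 of the 22 that were (9.09%, against 13.8% of all genes). Of these 2 only Mir145a is a hairpin. None of the 22 was higher. Of the 8 fibroblast markers 4 were lower in iPS than in TSKM-3D cells and Dcn was higher, as given above, and their part in these differences was not tested.

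Mir145a, a microRNA of smooth muscle and other mesenchymal cells, measured 7.34, 7.17 and 7.16 in fibroblasts, 7.19, 6.94 and 7.36 at day 3, and 4.97, 4.70 and 4.80 in iPS cells. Fibroblast and TSKM-3D arrays overlapped and the iPS arrays lay far below. The difference was -0.06 at day 3 (limma, Benjamini-Hochberg adjusted p = 0.681) and -2.34 ± 0.11 from TSKM-3D to iPS (adjusted p = 1.13e-08), or 5.06-fold lower.

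Mir143, its partner in the same primary transcript, measured 6.63, 6.44 and 6.56, then 6.75, 7.26 and 6.46, then 5.70, 5.81 and 5.71. Its iPS arrays were again the lowest, by -1.09 ± 0.16 against TSKM-3D (limma, Benjamini-Hochberg adjusted p = 0.000126). Without the second TSKM-3D array, the highest of its group, the difference was -0.87 and no longer 2-fold.

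Mir100hg, the host transcript of Mir100, Mir125b-1 and Mirlet7a-2, measured 8.71, 8.36 and 8.26 in fibroblasts, 8.46, 8.90 and 8.67 at day 3, and 6.03, 5.09 and 5.53 in iPS cells. It showed the largest fall among the microRNA gene rows, -3.12 ± 0.21 from TSKM-3D to iPS (limma, Benjamini-Hochberg adjusted p = 1.59e-07), or 8.72-fold. The rows of the 3 hairpins inside it did not follow: Mir100, Mir125b-1 and Mirlet7a-2 differed by -0.09, -0.18 and 0.09 in that comparison, all from levels below 5.

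Mir568 and Mir181b-1 completed the falls in iPS cells. Mir568 measured 4.32, 4.44 and 4.56 in fibroblasts, 4.64, 4.00 and 4.47 at day 3, and 3.47, 3.19 and 3.40 in iPS cells, which stood below all others. Its fall of -1.02 from TSKM-3D was lost as a call without the first or the third TSKM-3D array (-0.88 and -0.97) or the second iPS array (-0.94), whereas that against fibroblasts (-1.09) was not. Mir181b-1 measured 5.35, 5.14 and 5.44, then 4.47, 4.47 and 4.45, then 4.04, 4.04 and 4.03, lower at each stage and at -1.28 ± 0.09 in iPS cells against fibroblasts (limma, Benjamini-Hochberg adjusted p = 9.92e-08). Mir181b-2, which encodes the same mature miR-181b, differed by 0.07.

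Only Mir677 and Mir3068 were called higher in iPS than in TSKM-3D cells. Mir677 measured 5.48, 4.99 and 5.15 in fibroblasts, 5.60, 5.65 and 5.75 at day 3, and 6.90, 7.27 and 7.04 in iPS cells, 1.40 ± 0.13 above TSKM-3D (limma, Benjamini-Hochberg adjusted p = 2.62e-06). Mir3068 measured 4.74, 4.65 and 4.29, then 5.86 on all 3 TSKM-3D arrays to 2 decimals, then 7.0, 7.27 and 6.96. Its groups climbed without overlap, by 1.29 ± 0.12 at day 3 and 1.22 ± 0.12 after it (adjusted p = 3.69e-06 and 4.44e-06), which made it 5.72-fold higher in iPS cells than in fibroblasts. Atp5b, the ATP synthase subunit gene that contains Mir677, differed by 0.09 and 0.12 in the same steps.

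**Figure D4:**
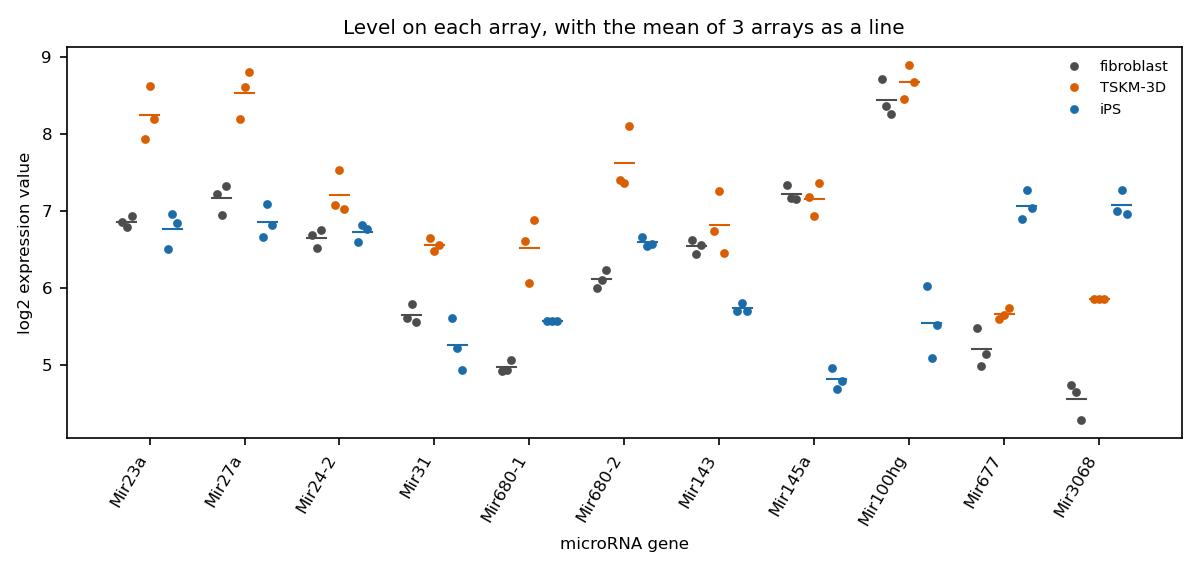
Log2 level on each array, with group means as lines, for 11 members outside the miR-17-92 and Dlk1-Dio3 loci. From left to right the plot shows rows that were highest at day 3 (Mir23a to Mir680-2), rows that were lowest in iPS cells (Mir143 to Mir100hg) and rows that were highest in iPS cells (Mir677 and Mir3068).

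Against fibroblasts, iPS cells were higher in 19 members, of which 6 are the miR-17-92 rows. The others were Mir3068, Mir677, Mir320 (1.63), Mir365-1 (1.47), Mir692-1 (1.41), Mir341 (1.26), Mir483 (1.15), Mir128-2 (1.11), Mir181d (1.08), Mir15b (1.07), Mir302b (1.05), Mir135b (1.03) and Mir92b (1.03). Mir320, whose hairpin is known to be processed without Drosha, measured 7.60, 7.71 and 7.81 in fibroblasts, 8.51, 8.94 and 8.42 at day 3, and 9.33, 9.32 and 9.37 in iPS cells. Its groups lay in ascending order without overlap (limma, Benjamini-Hochberg adjusted p = 2.76e-07 for iPS against fibroblasts). Mir692-1 showed the same order, measuring 9.25, 9.65 and 9.72, then 10.35, 10.09 and 10.19, then 10.95, 10.95 and 10.93. Other miR-692 loci share an array row with the ferritin gene Ftl1, and the probes of Mir692-1 were not examined for binding to it.

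The members near the 2-fold line here rested on single arrays or on scaling. With array medians set equal the differences of Mir128-2, Mir135b, Mir15b, Mir181d, Mir302b, Mir483 and Mir92b were 0.94, 0.86, 0.90, 0.91, 0.88, 0.98 and 0.86, all short of 2-fold and all still positive. Mir135b and Mir15b also missed it without the second iPS array (0.96 and 0.99), Mir181d without the first iPS array (0.99) and Mir92b without the third fibroblast array (0.99).

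The cluster of miR-302 and miR-367, at chr3:127545228-127545807 on the plus strand, is a hallmark of pluripotent cells. Its rows were below the array median in all groups. Mir302b measured 2.84, 2.93 and 2.82 in fibroblasts, 3.10, 3.14 and 3.10 at day 3, and 3.52, 3.89 and 4.34 in iPS cells. The iPS arrays were the highest and also the most spread, and the difference from fibroblasts was 1.05 ± 0.16 (limma, Benjamini-Hochberg adjusted p = 0.000118). It fell short of 2-fold without the third iPS array (0.84) and under quantile normalization (0.92).

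The other 4 rows of that cluster were not called. Mir302c measured 3.34, 3.40 and 3.37 in fibroblasts and 4.09, 3.77 and 3.92 in iPS cells, a difference of 0.56 (limma, Benjamini-Hochberg adjusted p = 0.000738), and Mir302a differed by 0.41 (adjusted p = 0.0013). Mir302d and Mir367 differed by 0.19 and 0.15 (adjusted p = 0.0525 and 0.191).

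let-7 microRNAs mark differentiated cells and are blocked from maturing by LIN28 proteins. Of the 10 measured rows of let-7 and miR-98, only Mirlet7f-1 was called, at day 3 (10%, where 3.25% of all genes were called higher). None was called lower in any comparison, where 7.58%, 8.57% and 13.8% of all genes were. The medians of the 10 were 0.26, 0.03 and 0.31 on the log2 scale for TSKM-3D against fibroblasts, iPS against TSKM-3D and iPS against fibroblasts. Mir98, with the let-7 seed GAGGUAG, measured 3.95, 3.84 and 3.85 in fibroblasts, 4.60, 4.49 and 4.42 at day 3, and 4.63, 4.51 and 4.67 in iPS cells, 0.62 higher at day 3 (limma, Benjamini-Hochberg adjusted p = 5.39e-05). Between fibroblasts and iPS, limma called 0 of the 10, with 5 at an adjusted p under 0.05, all higher, and 5 at an unadjusted p under 0.05. Of all genes, 21.5% were called in that comparison. At an adjusted p under 0.05, 25.5% of all genes were higher and 29.1% lower.

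Several families known from other cell types gave no called row. In the 3 comparisons 10.8%, 15.1% and 21.5% of all genes were called, and 6.0%, 3.33% and 9.0% of the 300 microRNA rows. At the latter shares lists this short would hold few calls or none. For miR-34, a family of the p53 response, none of 3 rows was called by limma in any comparison, with 1, 0 and 0 at an unadjusted p under 0.05 in the 3 comparisons. For miR-200 with miR-141, the epithelial family, none of 4 was called (2, 1 and 2 unadjusted). The 4 epithelial marker genes were all higher in iPS than in TSKM-3D cells, and a link between these genes and the miR-200 rows was not tested. The 5 rows with names of the Sfmbt2 intron cluster gave none either (2, 0 and 3 unadjusted).

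Rows of microRNAs known from other tissues were called once only, where 10.8%, 15.1% and 21.5% of all genes were called in the 3 comparisons. For the 300 microRNA rows the shares were 6.0%, 3.33% and 9.0%, at which lists this short would hold few calls. Of 7 striated muscle microRNAs none was called by limma (1, 1 and 1 at an unadjusted p under 0.05), of 5 blood microRNAs none (4, 2 and 1), and the liver microRNA Mir122 measured 4.24 to 4.66 over all arrays. Of the blood microRNAs, Mir142 was 0.76 higher in iPS cells than in fibroblasts (limma, Benjamini-Hochberg adjusted p = 0.000243) and Mir155 0.50 higher at day 3 (adjusted p = 0.000758). Of 10 neural microRNAs, Mir128-2 alone was called, higher in iPS against fibroblasts (10%, where 7.63% of all genes were higher). It measured 4.60, 4.76 and 4.47 in fibroblasts, 5.32, 5.73 and 5.24 at day 3, and 5.79, 5.59 and 5.78 in iPS cells.

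Many microRNA hairpins lie within other genes, and 90 members fell on the same strand inside 72 host genes that had a row, giving 91 pairs. Mir17hg is not among these hosts, because its RefSeq span begins at the end of the miR-17-92 hairpins measured here, and it was called higher together with them. Of the 72 hosts, 10, 16 and 18 were called in the 3 comparisons, where 10.8%, 15.1% and 21.5% of all genes were called in either direction. Members of the pairs were called in only 0, 1 and 5 cases, so the number of shared calls, 0 in each comparison, was largely fixed by these counts. The pairs of Mest and Slit3 were chosen after their values were seen. Mest, an imprinted gene of mesoderm, fell by 3.26 at day 3 while Mir335 in its intron differed by 0.48. Igf2, a growth factor gene, fell by 4.37 at day 3 while Mir483 within it differed by 0.65, and in iPS cells against fibroblasts they were called in opposite directions (-2.32 and 1.15). Slit3, a guidance ligand, was lower in iPS than in fibroblasts by 3.97 (difference -3.97), and Mir218-2 differed by -0.11.

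Genes of the microRNA machinery were not called at day 3: limma called 0 of 26, with 14 at an unadjusted p and 12 at an adjusted p under 0.05 (7 higher and 5 lower). Of all genes, 10.8% were called at day 3 and 44.6% passed the adjusted p (19.2% higher and 25.3% lower). In iPS against TSKM-3D cells 5 were higher (19.2%, against 6.48% of all genes) and 1 lower (3.85%, against 8.57%). Against fibroblasts again 5 were higher and 1 lower, where 7.63% and 13.8% of all genes were. Lin28a, which blocks let-7 maturation, measured 6.22, 6.51 and 6.43 in fibroblasts, 6.49, 6.71 and 6.42 at day 3, and 10.64, 10.71 and 10.50 in iPS cells. It was 4.08 ± 0.11 higher in iPS than in TSKM-3D cells (limma, Benjamini-Hochberg adjusted p = 9.33e-11). Its paralog Lin28b was 1.17 higher and Trim71, a let-7 target and stem cell ubiquitin ligase, 2.95 higher in that comparison.

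The nuclear and cytoplasmic processing enzymes changed less. Drosha measured 8.73, 8.69 and 8.70 in fibroblasts, 8.94, 8.60 and 9.03 at day 3, and 9.59, 9.83 and 9.65 in iPS cells, 0.98 above fibroblasts (limma, Benjamini-Hochberg adjusted p = 1.07e-05). Dgcr8 differed by 0.46, Xpo5, the export factor, by 0.31, Dicer1 by 0.13 and Ago2, the slicing Argonaute, by -0.04 in that comparison. The RNA-editing enzyme Adar was higher than in TSKM-3D and fibroblasts (1.35 and 1.24), Mov10, a helicase of the silencing complex, higher than in TSKM-3D (1.04), and Srrt, a cap-binding partner of Drosha, higher than in fibroblasts (1.04). Prkra, a Dicer partner, was lower than both (-1.01 and -1.14).

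The calls of Mov10 and Srrt depended on scaling (0.92 and 0.87 with array medians set equal). Mov10 also missed 2-fold without the second TSKM-3D (0.97) or second iPS array (0.96), Srrt without the second iPS array (1.00), and Prkra against TSKM-3D without the third TSKM-3D (-0.92) or second iPS array (-0.95).

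**Figure D5:**
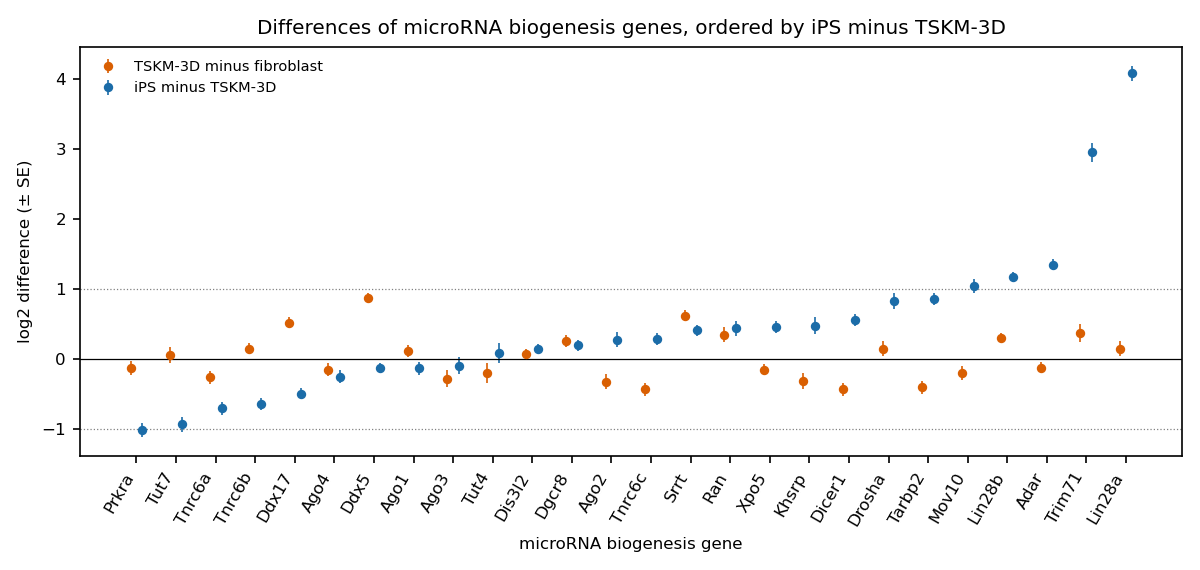
Log2 difference with SE for 26 microRNA biogenesis genes, TSKM-3D against fibroblasts and iPS against TSKM-3D, ordered by the latter, with dotted lines at 2-fold. At day 3 all 26 lie between the dotted lines, and after it Lin28a (4.08) and Trim71 (2.95) stand far above the others.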

How the data were processed

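Total RNA was labelled with biotin by a whole-transcript terminal labelling kit, per the labels' protocols, and measured on 1 Affymetrix mouse array per sample. The deposited table holds log2 values for 34760 rows; how the authors normalized them is not given in the sources used here, and they were used as deposited. Array medians were 6.01 to 6.23. With 3 arrays in each group, their number limits the precision. Names came from GEO's platform table, which can be old: 21640 rows had 1 symbol, 1321 several and 11799 were not in it.

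All 9 arrays and 19937 genes entered 1 limma model without covariates (limma 3.58.1, eBayes, run under R 4.3.3) and p-values were adjusted over all genes by Benjamini-Hochberg; the test was checked on simulated data. Clusters were RefSeq hairpins at most 10 kb apart on 1 strand. Hairpins were aligned end to end with Biopython 1.88. Hosts were genes whose RefSeq span holds the hairpin on the same strand.

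The members and all lists were chosen with earlier results of these data known. Named were the 10 largest called rises and falls per comparison, members of the listed families (miR-302 with miR-367, miR-17-92 and paralogs, let-7, miR-34, miR-200, mesenchymal, Dlk1-Dio3, Sfmbt2, striated muscle, neural, blood, liver), host transcripts, biogenesis genes, hosts and markers. Alternatives covered array scaling, a filter on dim rows, the call rule, the row per gene, an intensity trend, 2-group fits, a replicate block and leaving out each array.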

Additional observations from a re-analysis of the deposited data

How the results depend on the processing

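No called difference of a named gene reversed under any alternative run. Of 67 such differences, 11 dropped below 2-fold with array medians set equal, 6 under quantile normalization and 1 to 7 when 1 array was left out. An intensity trend, 2-group fits and the mean of a gene's rows changed 0 of the 67. The 6 miR-17-92 rows were called at day 3 and in iPS cells against fibroblasts under every alternative; the filter on dim rows left 5 of them, all called. With array medians set equal, 12 microRNA genes were higher in iPS than in fibroblasts, and 2 and 3 biogenesis genes were lower in iPS than in TSKM-3D and than in fibroblasts. The filter left 5 microRNA genes lower in iPS than in fibroblasts. Without the fold requirement the microRNA genes called higher and lower were 81 and 18 at day 3, 44 and 25 for iPS against TSKM-3D and 103 and 18 for iPS against fibroblasts; the biogenesis genes were 7 and 5, 13 and 6, and 13 and 6; and the lower Dlk1-Dio3 rows were 17 at day 3 and 9 in iPS against fibroblasts.

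Leaving out each array in turn gave 12 to 16 higher and 4 to 6 lower microRNA genes at day 3, 2 to 3 and 6 to 8 for iPS against TSKM-3D, and 18 to 21 and 7 to 8 for iPS against fibroblasts. The biogenesis genes lower in iPS ranged from 0 to 2 against TSKM-3D (2 without its second array, 0 without the third) and from 1 to 2 against fibroblasts (2 without the third iPS array). Without the third fibroblast array, whose cell type label disagrees with its title, 12 were higher and 5 lower at day 3. Same-numbered arrays did not deviate together (correlations -0.0979 to 0.0618), so the numbers were not taken as pairs; with the number as a replicate block, 13 were higher and 5 lower at day 3, and 0 of the 67 differences changed.

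Signal over background was not measured. Of the 300 rows, 213 did not reach the array median on average in any group, and of the called members 13 of 18, 9 of 10 and 17 of 27 reached it in at least 1 of the groups compared (TSKM-3D against fibroblasts, iPS against TSKM-3D, iPS against fibroblasts).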
